A study of Homo sapiens with 4 samples.

Results

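The module described here consists of 145 genes whose transcripts were more abundant in MG cells than in non-MG cells both without and with 5-azacytidine. HCT116 cells come from a human colorectal carcinoma. By repeated passage through a transwell membrane, the study enriched them for cells that migrated across the membrane, the MG cells, and for cells that stayed behind, the non-MG cells. Both subpopulations were kept with 5 µM 5-azacytidine or as vehicle-treated controls for 48 h, and 400 ng of total RNA from each of the 4 conditions was labelled with Cy3 and hybridized to 1 one-colour Agilent array. All 4 conditions share the parental line. The study describes 1 MG and 1 non-MG population, and whether the arrays of each came from separate cultures or isolates is not stated. With 1 array per condition there were no replicates, and no test between conditions was made for any value below.

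A probe entered the module when it was well above background on all 4 arrays and its log2 intensity, after subtraction of the 75th percentile of its array, was higher by at least 0.8 in MG than in non-MG cells in both pairs of arrays, that is, in the control pair and in the 5-azacytidine pair. Probes were collapsed to genes through their RefSeq accessions. Of 13088 genes measured on all 4 arrays with 17054 probes, 145 genes with 156 probes met the rule (1.11%), and no histone gene did, so the exclusion of histones removed nothing. The opposite rule, lower by at least 0.8 in both pairs, was met by 185 genes (1.41%). The genes were thus chosen by their MG over non-MG ratios, which are given as a description. The response to 5-azacytidine, the further probes of the genes and their neighbours in the genome were not part of the rule. The response was, however, computed from the same intensities as the ratios.

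Cells of an epithelial tumour that gain motility often keep part of their epithelial programme while they take up mesenchymal features such as vimentin filaments, secreted matrix and altered adhesion molecules, a state called hybrid epithelial-mesenchymal transition (EMT). The cytosine analogue 5-azacytidine is built into nucleic acids and traps DNA methyltransferases, so that methylation at CpG dinucleotides is lost as cells divide. Genes silenced by promoter methylation can then be transcribed again.

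All 4 arrays lay on 1 slide, where row 1 held the non-MG and row 2 the MG arrays, and columns 3 and 4 held the controls and the 5-azacytidine arrays. Slide position and condition therefore cannot be told apart. Between 21368 and 21868 of 50594 probes were well above background per array, and no spot was saturated. Of 8 markers of colon epithelium, 7 were well above background on all 4 arrays, and VIL1 was on none. Of 6 fibroblast markers, COL1A1 alone was well above background on all arrays, and the other 5 were on none. In RNA from whole cultures, a rise in all cells and a larger share of cells that express a gene cannot be told apart. The error given beside each ratio is the spot error. It was derived from the median SD between spots of probes printed 10 times on an array, taken by intensity. This SD fell from 0.32 at log2 intensities of 3 to 4 to 0.05 above 10. For each probe it was divided by the square root of its number of spots, and the errors of the 2 arrays were combined. The spot error covers spotting and scanning, and it does not cover differences between cultures, extractions or labellings.

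Promoters of 6 genes are printed here, since 5-azacytidine acts at CpG dinucleotides, which stand in capitals. MIA and DCLK1 had the highest ratios when the lower of the 2 pairs is taken for each gene, LCN2 and VIM were the members raised most by the drug, and TM4SF1 and TM4SF18 are genomic neighbours that were both members. Each sequence runs from 250 bases before to 50 bases after the first start listed by RefSeq for the gene in GRCh38.p14. The regions are MIA on chr19:40774910-40775209 (forward strand), DCLK1 on chr13:36131890-36132189 (reverse strand), LCN2 on chr9:128149203-128149502 (forward strand), VIM on chr10:17227991-17228290 (forward strand), TM4SF1 on chr3:149377600-149377899 (reverse strand) and TM4SF18 on chr3:149333587-149333886 (reverse strand).
MIA: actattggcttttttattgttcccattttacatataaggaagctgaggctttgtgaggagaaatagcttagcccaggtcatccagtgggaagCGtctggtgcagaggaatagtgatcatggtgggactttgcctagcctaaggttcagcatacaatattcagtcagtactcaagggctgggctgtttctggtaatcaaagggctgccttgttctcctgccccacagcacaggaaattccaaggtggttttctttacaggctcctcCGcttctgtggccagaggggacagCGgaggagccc
DCLK1: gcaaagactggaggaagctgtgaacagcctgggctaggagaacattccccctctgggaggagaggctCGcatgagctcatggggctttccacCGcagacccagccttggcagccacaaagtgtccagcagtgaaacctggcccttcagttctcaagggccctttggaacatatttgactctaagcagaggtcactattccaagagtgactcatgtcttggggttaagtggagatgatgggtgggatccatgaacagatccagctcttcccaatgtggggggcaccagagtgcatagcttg
LCN2: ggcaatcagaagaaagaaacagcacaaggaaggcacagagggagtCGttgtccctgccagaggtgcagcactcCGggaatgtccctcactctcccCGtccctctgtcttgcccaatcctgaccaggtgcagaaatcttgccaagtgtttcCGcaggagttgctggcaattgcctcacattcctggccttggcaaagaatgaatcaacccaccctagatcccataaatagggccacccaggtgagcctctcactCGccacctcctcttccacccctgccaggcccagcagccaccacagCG
VIM: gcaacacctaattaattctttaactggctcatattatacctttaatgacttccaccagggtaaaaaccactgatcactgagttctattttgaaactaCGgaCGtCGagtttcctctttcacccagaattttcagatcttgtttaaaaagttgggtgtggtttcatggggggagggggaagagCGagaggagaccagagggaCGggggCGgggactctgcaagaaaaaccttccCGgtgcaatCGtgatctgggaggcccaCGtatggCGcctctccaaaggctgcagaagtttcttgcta
TM4SF1: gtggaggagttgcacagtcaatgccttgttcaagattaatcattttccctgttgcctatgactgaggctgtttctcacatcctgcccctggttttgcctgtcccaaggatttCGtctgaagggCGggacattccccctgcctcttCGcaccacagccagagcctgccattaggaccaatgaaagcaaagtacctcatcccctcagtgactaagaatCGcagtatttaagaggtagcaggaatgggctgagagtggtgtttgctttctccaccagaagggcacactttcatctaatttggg
TM4SF18: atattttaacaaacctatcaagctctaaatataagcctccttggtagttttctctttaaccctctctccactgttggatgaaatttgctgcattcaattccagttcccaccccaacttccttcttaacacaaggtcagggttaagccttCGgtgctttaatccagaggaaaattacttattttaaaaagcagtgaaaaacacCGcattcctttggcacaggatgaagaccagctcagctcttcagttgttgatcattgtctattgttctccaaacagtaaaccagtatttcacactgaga
The VIM window holds 10 CpG dinucleotides, LCN2 6, TM4SF1 4, MIA 3, and DCLK1 and TM4SF18 2 each, compared with a median of 14 over 27305 genes with a listed promoter. All 6 windows thus hold fewer CpG dinucleotides than the median gene. Each window covers the first listed start alone, and RefSeq lists 3 starts for DCLK1 and 2 for MIA. CpG dinucleotides at the other starts or outside the windows were not counted. RefSeq promoter sequences were matched for 99 of the 145 genes (68.3%), so a comparison of promoter composition over the whole module was void and was not made. No methylation was measured on these arrays.

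Secreted and extracellular products were among the strongest members. MIA, a small protein secreted by cartilage and melanoma cells that loosens attachment to matrix, had the highest ratio of the module when the lower of the 2 pairs is considered. Its intensity was 55.2 and 66.2 on the control and 5-azacytidine arrays of the non-MG cells and 508 and 687 on those of the MG cells. On the log2 scale MG cells exceeded non-MG cells by 3.02 (spot error 0.14) in the control pair and 3.01 (spot error 0.10) in the 5-azacytidine pair. Both MG arrays were far above both non-MG arrays, and the ratio was nearly equal with and without the drug. LCN2, lipocalin-2, an iron-siderophore binding protein of epithelial defence, read 20.8 and 88.4 on the control and 5-azacytidine arrays of the non-MG cells and 238 and 540.0 on those of the MG cells. Its log2 ratio was 3.34 (spot error 0.21) in the control pair and 2.25 (spot error 0.10) in the 5-azacytidine pair, the largest of the module in the control pair. The non-MG array with the drug was well above the untreated one, and the ratio in the second pair was correspondingly smaller. VCAN, versican, a large matrix proteoglycan, went from 34.3 and 36.2 in non-MG to 146 and 164 in MG cells, with log2 ratios of 1.91 and 1.82. F3, tissue factor, the membrane-bound starter of coagulation and a target of YAP and TEAD, went from 339 and 267 in non-MG to 1111 and 996 in MG cells, and HS3ST1, a heparan sulfate sulfotransferase, from 1005 and 577 in non-MG to 2705 and 2133 in MG cells. These 3 genes had both MG arrays above both non-MG arrays by similar amounts in the 2 pairs. Other secreted products with smaller ratios were the growth factors FGF9 (1.32 and 0.98) and FGF19 (1.0 and 0.97), the IGF-binding protein IGFBP6 (0.98 and 1.34), the protease KLK6 (1.03 and 1.16) and the vitamin B12 carrier TCN1 (1.18 and 1.25), where each pair of values is the log2 ratio in the control pair and then in the 5-azacytidine pair. Of the 3 IGF-binding proteins measured, IGFBP6 was the one in the module (33.3%, next to 1.11% of all genes).

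At the cell surface, TM4SF1 and TM4SF18, membrane proteins of the L6 family with 4 transmembrane segments, were both members. TM4SF1 read 21.3 and 23.1 on the control and 5-azacytidine arrays of the non-MG cells and 117 and 122 on those of the MG cells, which gave a log2 ratio of 2.27 (spot error 0.22) in the control pair and 2.04 (spot error 0.22) in the 5-azacytidine pair. A second TM4SF1 probe was well above background on the MG arrays alone, at 25.6 and 28.2 compared with 2.17 and 2.29 on the non-MG arrays. TM4SF18 was brighter, from 141 and 92.3 in non-MG to 465 and 402 in MG cells, with log2 ratios of 1.54 and 1.76. These were the 2 members among 23 measured tetraspanins and TM4 proteins (8.70%, next to 1.11% of all genes). CEACAM1, an adhesion molecule of epithelial cells, went from 34.4 and 38.0 in non-MG to 179.9 and 148 in MG cells, with a log2 ratio of 2.21 (spot error 0.15) in the control pair and 1.60 (spot error 0.15) in the 5-azacytidine pair. ANO1, a calcium-activated chloride channel, went from 104 and 117 in non-MG to 388 and 415 in MG cells, and SUSD2, a membrane protein with a sushi domain, from 197 and 388 in non-MG to 871 and 1473 in MG cells. For ANO1 and SUSD2 too, each MG array was above each non-MG array, and the log2 ratios were 1.71 and 1.47 for ANO1 and 1.96 and 1.57 for SUSD2. Receptors and carriers in the module included the transferrin receptor TFRC (1.12 and 1.09), the scavenger receptor SCARA3 (1.30 and 1.21 for its passing probe, and 0.42 and 0.58 for the probe of another transcript), the interleukin-17 receptor subunit IL17RB (1.1 and 0.80) and the organic anion transporter SLCO1B3 (1.22 and 1.31). Of 234 solute carriers measured, 4 were members, SLC7A11, SLC16A6, SLC43A3 and SLCO1B3, a share of 1.71% next to 1.11% of all genes.

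**Figure D1:**
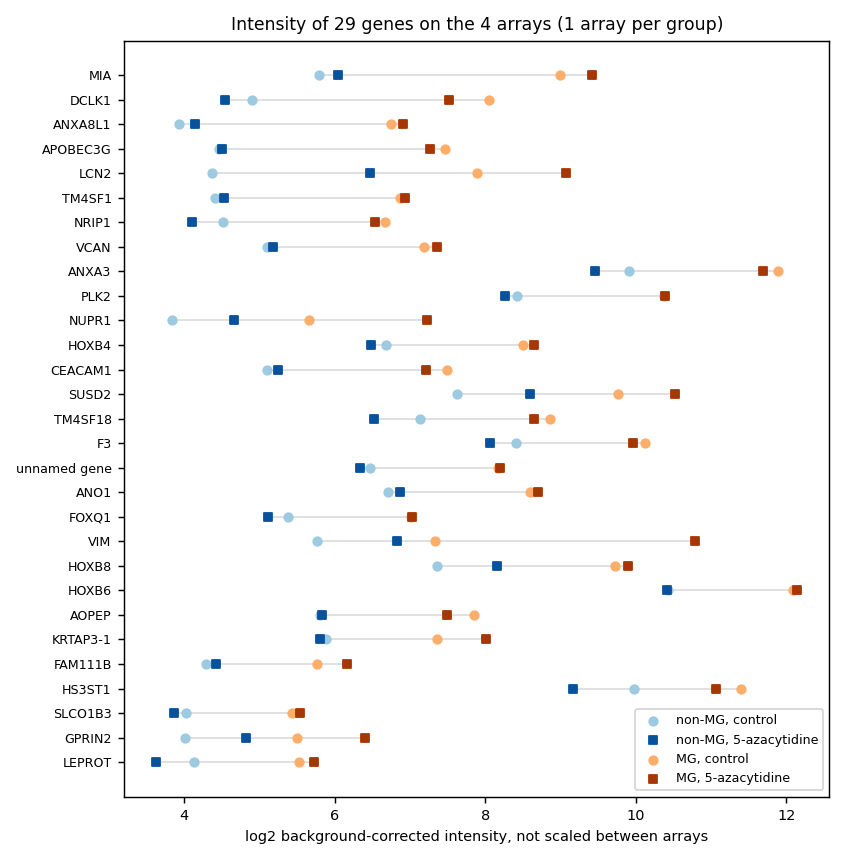
Log2 intensity, not scaled between arrays, of 29 of the 30 genes with the highest lower-of-2 ratio, in order, on the 4 arrays (circles, control; squares, 5-azacytidine; blue, non-MG cells; orange to brown, MG cells; 1 array per group, so there is no error bar, and the grey line spans the 4 values). The orange and brown points lie to the right of both blue points for each of the 29 genes, and the widest gap between treatments of the same cells is that of VIM in MG cells, 162 to 1771 in linear intensity.

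Among calcium-binding and filament proteins, VIM, vimentin, the intermediate filament protein of mesenchymal cells, read 54.3 and 114 on the control and 5-azacytidine arrays of the non-MG cells and 162 and 1771 on those of the MG cells. The log2 ratio was 1.39 (spot error 0.15) in the control pair and 3.60 (spot error 0.10) in the 5-azacytidine pair. Vimentin was thus higher in MG cells before treatment, and the array of treated MG cells stood far above the other 3. ANXA8L1, an annexin, read 15.2 and 17.7 on the control and 5-azacytidine arrays of the non-MG cells and 107 and 121 on those of the MG cells, with a log2 ratio of 2.63 (spot error 0.33) in the control pair and 2.41 (spot error 0.22) in the 5-azacytidine pair. ANXA8, a nearly identical gene, may share signal with this probe. ANXA3, another annexin, was one of the brightest members, at 963 and 703 on the control and 5-azacytidine arrays of the non-MG cells and 3786 and 3311 on those of the MG cells, with a log2 ratio of 1.79 (spot error 0.02) in the control pair and 1.88 (spot error 0.02) in the 5-azacytidine pair. The small spot error of ANXA3 comes from a probe printed 10 times. Of 15 annexin genes and relatives measured, these 2 were in the module (13.3%, next to 1.11% of all genes) and 3 met the opposite rule (1.41% of all genes), ANXA10 with log2 ratios of -3.01 and -2.46, ANXA9 and the annexin receptor gene ANXA2R. The S100 proteins, which are calcium sensors, contributed S100A2 (1.17 and 1.34) and S100A3 (1.06 and 1.5) of 12 measured (16.7%), and S100A4, known for its link to metastasis, had 0.70 and 0.62 and stayed below the threshold. Keratins contributed KRT80 (1.18 and 1.16) and KRT13 (1.04 and 0.97) of 21 measured (9.52%, next to 1.11% of all genes), and the hair keratin-associated protein KRTAP3-1 had 1.29 and 1.84. KRT13 was dim, from 11.7 and 12.7 in non-MG to 27.3 and 32.0 in MG cells. The transglutaminase TGM2, a protein cross-linking enzyme, was a member by both of its probes, with log2 ratios of 1.42 and 1.45 for one and 0.91 and 1.08 for the other.

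On a list of mesenchymal and EMT genes, 5 of 26 measured genes were members, MIA, DCLK1, VIM, TGM2 and ZEB1, and none met the opposite rule. The share of 19.2% compares with 1.11% over all genes, and the median log2 ratio of the whole list was 0.05 in the control pair and 0.28 in the 5-azacytidine pair, next to 0.01 and 0.05 over all genes. The list as a whole was therefore not displaced as its 5 members were. The list was drawn up with earlier results of these data known. The study itself names these 5 genes in an EMT network that it built from its expression arrays. Nothing is therefore read from the share. ZEB1, a zinc finger repressor of E-cadherin, was dim, from 27.5 and 37.8 in non-MG to 77.5 and 101 in MG cells, with a log2 ratio of 1.31 (spot error 0.22) in the control pair and 1.05 (spot error 0.16) in the 5-azacytidine pair. A second ZEB1 probe was well above background on the MG arrays alone, at 19.3 and 20.1. Other EMT genes stayed under the threshold in at least 1 pair, among them SPARC with 0.66 and 1.13, AXL with 0.69 and 0.66, SNAI1 with -0.38 and -0.18 and TWIST1 with -0.30 and 0.25. On the list of epithelial identity and junction genes, 1 of 38 was a member (2.63%, next to 1.11% of all genes). It was OVOL2 (1.19 and 1.06), a zinc finger protein known to keep epithelial identity. Nothing is read from this count, which is near the background. The opposite rule, which 1.41% of all genes met, was met by 3 genes of the list. They were the tight junction genes CLDN3 (-0.85 and -0.85) and TJP3 (-1.14 and -1.17) and the epithelial transcription factor ELF3 (-1.09 and -0.96).

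Kinases and regulators of transcription formed a further group. DCLK1, a microtubule-associated kinase known as a marker of tuft cells and of tumour stem cells of the gut, read 30.003 and 23.3 on the control and 5-azacytidine arrays of the non-MG cells and 265 and 183 on those of the MG cells. Its log2 ratio was 2.96 (spot error 0.21) in the control pair and 2.62 (spot error 0.21) in the 5-azacytidine pair, and both MG arrays were well above both non-MG arrays. Of 3 further DCLK1 probes, 1 was well above background on the control array of the MG cells alone, at 14.6, and the other 2 were on no array. PLK2, a polo-like kinase that responds to stress, went from 344 and 308 in non-MG to 1331 and 1344 in MG cells, with log2 ratios of 1.77 and 1.77. NRIP1, a corepressor of nuclear receptors, was a member by 2 probes, with log2 ratios of 2.44 and 2.33 for one and 1.52 and 1.82 for the other. FOXQ1, a forkhead factor, went from 41.8 and 34.8 in non-MG to 129 and 131 in MG cells. It was the member among 26 FOX genes measured (3.85%, next to 1.11% of all genes). ZNF202 (1.20 and 1.29) was the member among 326 ZNF genes (0.307%, under the 1.11% of all genes). From a list of 14 measured Wnt targets and crypt stem cell genes, DCLK1, SP5 and AXIN2 were members (21.4%, next to 1.11% of all genes). The median ratios of the list were -0.01 and 0.31. SP5, a transcription factor, went from 110.2 and 135 in non-MG to 288 and 363 in MG cells, with 1.20 and 1.07. AXIN2, a feedback inhibitor of Wnt signalling, went from 56.3 and 62.2 in non-MG to 127 and 149.5 in MG cells for its passing probe, with 0.99 and 0.90, and its other probe gave 0.64 and 0.64.

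The HOX genes, homeobox factors that lie in the 4 clusters HOXA, HOXB, HOXC and HOXD and set positional identity along the body axis, entered the module from the HOXB cluster alone. Of 8 HOXB genes measured, where 1.11% of all genes were members, 6 were, HOXB2, HOXB4, HOXB5, HOXB6, HOXB8 and HOXB9. HOXB6 was the brightest, at 1374 and 1362 on the control and 5-azacytidine arrays of the non-MG cells and 4369.8 and 4528 on those of the MG cells, with a log2 ratio of 1.49 (spot error 0.07) in the control pair and 1.37 (spot error 0.07) in the 5-azacytidine pair. HOXB4 went from 103 and 89.8 in non-MG to 361 and 401 in MG cells, with 1.63 and 1.80, and HOXB5 from 290.1 and 249 in non-MG to 731 and 652 in MG cells, with 1.15 and 1.03. HOXB8 went from 165 and 285 in non-MG to 847 and 953 in MG cells, with 2.18 and 1.38, and HOXB9 from 692 and 390.2 in non-MG to 1516 and 1543 in MG cells, with 0.95 and 1.62. Each MG array was above each non-MG array for all of these genes. HOXB2 was dim and passed by 1 of its 2 probes, with 0.97 and 1.12, and the other probe gave 0.96 and 0.47. Of the remaining measured genes of the cluster, HOXB3 had 0.68 and 0.28 and HOXB13, which lies apart at the far end, 0.03 and -0.16. HOXB13 was bright, at 543 and 530.0 in non-MG and 628 and 608 in MG cells. None of the 9 HOXA, 5 HOXC and 2 HOXD genes measured was a member, and none met the opposite rule. Over all genes the shares were 1.11% and 1.41%, so counts of 0 among so few genes are near the background. Nothing is read from them. By the lower of the 2 ratios, the highest among these HOXA, HOXC and HOXD genes was the brighter HOXA9 probe with 0.64 and 0.42. HOXA7 and HOXC9, both bright, had 0.29 and -0.19 and 0.05 and -0.03.

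**Figure D2:**
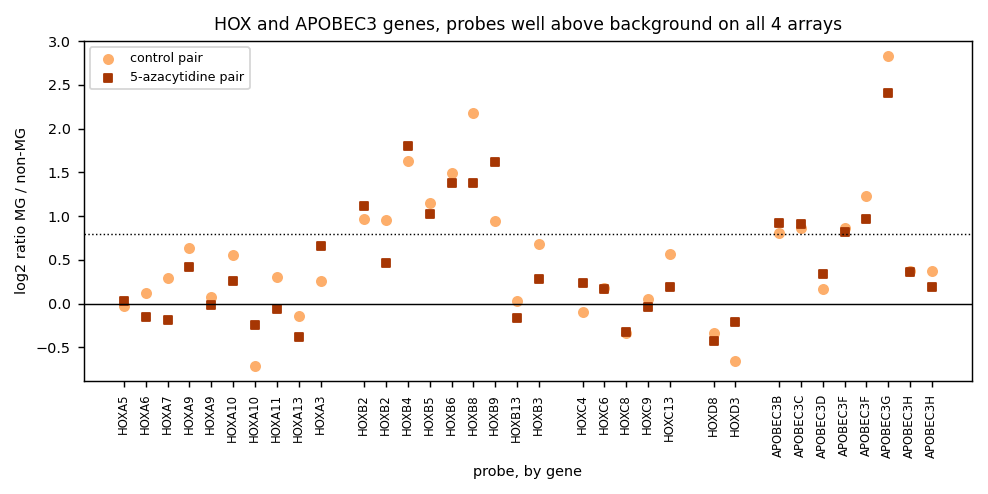
MG over non-MG log2 ratio (vertical axis) for every probe of HOX and APOBEC3 genes measured on all 4 arrays, by gene along the horizontal axis (circles, control pair; squares, 5-azacytidine pair; 1 array per group, no error bars; dotted line, the threshold of 0.8). Points above the dotted line in both pairs are found in HOXB and APOBEC3, up to 2.18 for HOXB8 and 2.83 for APOBEC3G, and in none of HOXA, HOXC and HOXD.

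The APOBEC3 genes encode cytidine deaminases that edit single-stranded DNA and restrict retroviruses and retroelements, and they lie side by side in 1 cluster. Of 6 measured, 4 were members (66.7%, next to 1.11% of all genes). APOBEC3G read 22.027 and 22.7 on the control and 5-azacytidine arrays of the non-MG cells and 177 and 154 on those of the MG cells, and its log2 ratio was 2.83 (spot error 0.21) in the control pair and 2.40 (spot error 0.21) in the 5-azacytidine pair. APOBEC3F was a member by both of its probes, at 1.23 and 0.97 for one and 0.86 and 0.82 for the other. APOBEC3C, measured by a probe printed 10 times, went from 205 and 166 in non-MG to 425 and 402 in MG cells, with a log2 ratio of 0.87 (spot error 0.03) in the control pair and 0.91 (spot error 0.03) in the 5-azacytidine pair. APOBEC3B went from 139 and 158 in non-MG to 276 and 383 in MG cells, with 0.80 (spot error 0.10) in the control pair and 0.92 (spot error 0.10) in the 5-azacytidine pair, just past the threshold in the control pair. APOBEC3G thus stood well above the other 3 in ratio. APOBEC3D gave 0.16 and 0.34, and the 2 APOBEC3H probes gave 0.37 and 0.36 and 0.37 and 0.19, all above 0 and under the threshold on dim signals. APOBEC3A was well above background on none of the arrays. Members of a family this similar in sequence may share signal between probes.

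Most genes of the cell cycle lists lay above 0 in both pairs, and a minority of them reached the threshold. On a list of 53 DNA replication genes, 51 had ratios above 0 in both pairs, compared with 42.8% of all genes, and the median log2 ratio was 0.66 in the control pair and 0.48 in the 5-azacytidine pair. Of these, 5 were members (9.43%, next to 1.11% of all genes). ORC6, a subunit of the origin recognition complex, went from 122 and 127 in non-MG to 292 and 323 in MG cells, with 1.08 and 0.99. CDC6, which loads the replicative helicase, was dim, with 1.17 and 0.98. RRM2, a subunit of ribonucleotide reductase, had 0.93 and 0.87. The clamp loader subunit RFC3 had 0.93 and 0.99 for its passing probe and 0.84 and 0.50 for the other. Cyclin E2, CCNE2, had 1.45 and 0.82 for its passing probe and 0.33 and 0.59 for the other. On the list of mitosis genes all 32 had ratios above 0 in both pairs, the medians were 0.39 and 0.46, and the kinetochore motor CENPE was the member (3.12%), from 193 and 128 in non-MG to 458 and 422 in MG cells, with 1.06 (spot error 0.03) in the control pair and 1.36 (spot error 0.03) in the 5-azacytidine pair. Further members of known function in the cell cycle were named after their values were seen. They were the phosphatase CDC25A (1.31 and 0.85), the centriole kinase PLK4 (0.93 and 0.85), the kinetochore proteins ZWINT (1.14 and 1.06), CENPL (1.24 and 0.98) and CENPO (0.95 and 0.84 for its passing probe), the condensin subunit NCAPG (0.93 and 0.87) and the recombination factors RAD51AP1 (0.99 and 0.83) and PSMC3IP (1.17 and 1.22). The other CENPO probe gave 0.60 and 0.51. Most genes of both lists lay between 0 and the threshold.

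Stress and metabolic genes were a small group. NUPR1, a stress-induced nuclear protein, was dim in untreated non-MG cells, and it read 14.3 and 25.3 on the control and 5-azacytidine arrays of the non-MG cells and 50.6 and 150.0 on those of the MG cells, with a log2 ratio of 1.64 (spot error 0.34) in the control pair and 2.21 (spot error 0.21) in the 5-azacytidine pair. SLC7A11, the cystine carrier that feeds glutathione synthesis and is a target of ATF4 and NRF2, went from 226 and 185 in non-MG to 676 and 546 in MG cells, with 1.40 and 1.20. PSAT1, an enzyme of serine synthesis, was a member by both of its probes with a mean of 1.12 and 1.09, and CHAC1, which degrades glutathione, had 1.19 and 0.88. These were 4 of 30 measured genes of the unfolded protein and amino acid response (13.3%, next to 1.11% of all genes), whose medians were 0.12 and 0.14. Over all genes the medians were 0.01 and 0.05. Of the 30, 17 had ratios above 0 in both pairs, compared with 42.8% of all genes. Other genes of the list lay lower than the 4 members. DDIT3 had -0.46 and -0.40, HSPA5 0.02 and 0.05 and ASNS 0.48 and 0.15. DDIT4 met the opposite rule with -1.36 and -0.96, as did 1.41% of all genes. From 26 measured p53 targets, TP53I3 (0.86 and 1.04), an oxidoreductase, and the death receptor FAS (0.80 and 1.73) were members (7.69%), and the list medians were -0.03 and 0.13. From 60 heat shock proteins and cofactors, HSPH1 (0.96 and 0.89) and DNAJC9 (0.97 and 0.92) were members (3.33%). Of the 145 genes, 51 were on any of the lists and families drawn up. No member came from the lists of interferon-stimulated genes (26 measured), actin cytoskeleton and motility genes (76 measured), MHC class I presentation (13 measured), TGF-beta and BMP signalling (22 measured), integrins (17 measured), collagens (18 measured) or matrix metalloproteinases and TIMPs (11 measured). At the share of 1.11% over all genes, a count of 0 in lists of these sizes is near the background, and nothing is read from it. The list of hypoxia and glycolysis genes gave no member either, and 13 of its 33 measured genes met the opposite rule, which 1.41% of all genes met.

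The ratios of the module in the 2 pairs, which the rule bounds from below in both, are given as a description. The median log2 ratio was 1.07 in the control pair, with a range of 0.80 to 3.34, and 1.05 in the 5-azacytidine pair, with a range of 0.80 to 3.60. In the control pair 329 genes (2.51%) were higher by at least 0.8 by any probe, and in the 5-azacytidine pair 358 (2.74%). The 145 genes were 44.1% of the former and 40.5% of the latter. These counts follow from the rule, as does the likeness of the medians, and nothing is read from them. For 113 of the 145 the ratios of the 2 pairs differed by at most 0.3, and for 6 they differed by at least 0.8. Among those 6, the ratio was larger with 5-azacytidine for VIM, PIGW, WTAP and FAS, and smaller for LCN2 and HOXB8. The lower of the 2 ratios was at least 2 for 6 genes, MIA, DCLK1, ANXA8L1, APOBEC3G, LCN2 and TM4SF1, at least 1 for 58, and under 0.9 for 55. Next to the threshold the module has no gap, since 90 genes lay from 0.7 to under 0.8. The 3 genes just inside were HNRNPAB (0.801), ESS2 (0.802) and IL17RB (0.802), and the 3 just outside were EXO1 (0.7998), UPP1 (0.799) and GALNT7 (0.798), differences far below the spot error.

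**Figure D3:**
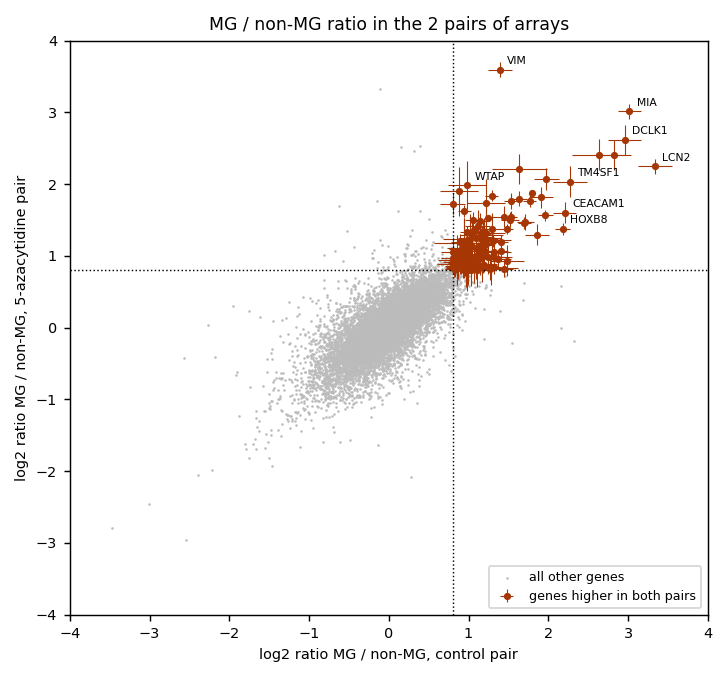
MG over non-MG log2 ratio in the control pair (horizontal axis) and in the 5-azacytidine pair (vertical axis) for the 145 genes (brown, with spot error on both axes) and all other measured genes (grey, clipped at 4). Dotted lines mark the threshold of 0.8 that chose the brown genes. Most of them crowd at the threshold, with medians of 1.07 and 1.05, and few extend beyond 2 on both axes.

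On the non-MG arrays the members were dimmer than all measured genes, which the rule favours because it chose genes low in those cells. The median log2 intensity was 6.11 on the control array of the non-MG cells, compared with 7.63 over all measured genes, and 6.20 compared with 7.37 with the drug. On the MG arrays the medians lay closer, at 7.49 compared with 7.83 in the control and 7.64 compared with 7.78 with the drug. A log2 intensity under 5 on at least 1 array was found for 43 members (29.7%), compared with 14.1% of all genes, and the other 102 were brighter on all arrays. On intensities not scaled between arrays, DENND2A was the 1 member that overlapped between the cell types. Its treated non-MG array, at 41.0, was above its untreated MG array, at 31.8. After scaling, STRA6 and SLC16A6 overlapped as well. Their log2 responses in non-MG cells, 1.41 and 1.11, exceeded their log2 ratios in the control pair, 1.37 and 0.99.

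The response to 5-azacytidine was compared next, as the ratio of treated over untreated cells within each subpopulation. The mean of the 2 responses is arithmetically independent of the sum of the 2 MG over non-MG ratios, while the difference of the responses equals that of the ratios. The rule bounded each ratio rather than their sum, and the counts below use the single responses. The counts are therefore not independent of the rule. In MG cells 16 of the 145 genes (11.0%) were raised past 1.5-fold, compared with 2.9% of all measured genes, and 1 was lowered, compared with 1.56%. In non-MG cells 17 (11.7%) were raised, compared with 1.78%, and 3 were lowered, compared with 1.5%. In both subpopulations 10 (6.90%) were raised, compared with 0.802%, and 0 were lowered, compared with 0.229%. No member moved past 1.5-fold in opposite directions, compared with 0.038% of all genes. At that share nothing is read from a count of 0. Of the members, 118 (81.4%) stayed within 1.5-fold in both subpopulations, compared with 93.3% of all genes. Restricted to log2 intensities of at least 5 on all arrays, 8 of 102 members (7.84%) were raised in MG cells, compared with 1.65% of the 11241 genes this bright, and 9 (8.82%) in non-MG cells, compared with 0.818%. The median log2 response of the members was 0.14 in MG and 0.19 in non-MG cells, and over all genes it was -0.01 and -0.05. Responses above 0 in both subpopulations were found for 94 members (64.8%), compared with 25.9% of all genes. With all measured probes of a member averaged, as was done for all genes, 13 members were raised in MG cells, 13 in non-MG cells and 10 in both, an alternative chosen after the data were seen. The shares raised were above those of all genes in both subpopulations, which describes these 4 arrays without a test, and most members kept to within 1.5-fold.

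The 5 members raised most, by the mean of the 2 responses, were VIM, LCN2, DENND2A, NUPR1 and STRA6. The log2 response of VIM was 3.49 (spot error 0.09) in MG cells and 1.28 (spot error 0.16) in non-MG cells. That of LCN2 was 1.21 (spot error 0.09) in MG cells and 2.30 (spot error 0.22) in non-MG cells. Vimentin was raised more in MG cells and lipocalin-2 more in non-MG cells, so that with the drug the first difference between the cell types was wider and the second narrower. DENND2A, which encodes a DENN domain regulator of RAB GTPases, read 13.2 and 41.0 on the control and 5-azacytidine arrays of the non-MG cells and 31.8 and 94.1 on those of the MG cells, and its log2 response was 1.60 (spot error 0.22) in MG cells and 1.85 (spot error 0.34) in non-MG cells. NUPR1 had 1.60 in MG and 1.03 in non-MG cells, and STRA6, the receptor for retinol-binding protein, went from 34.5 and 79.4 in non-MG to 101 and 197 in MG cells, with responses of 0.99 in MG and 1.41 in non-MG cells. All 5 were raised past 1.5-fold in both subpopulations, and each was measured throughout by 1 probe alone, as were all 10 genes raised in both. The remaining genes raised in both were the monocarboxylate carrier family member SLC16A6 (1.21 in MG and 1.11 in non-MG cells), GPRIN2 (0.94 in MG and 1.02 in non-MG cells), SUSD2 (0.79 in MG and 1.19 in non-MG cells), the transcription factor ATF5 (0.80 in MG and 0.69 in non-MG cells) and the cytochrome b561 family member CYB561D2 (0.74 in MG and 0.68 in non-MG cells). SLC16A6, GPRIN2 and CYB561D2 had MG over non-MG ratios that differed little between the pairs, since both subpopulations were raised by like amounts.

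In 1 subpopulation alone, 6 further members were raised past 1.5-fold in MG cells. They were FAS (1.29 in MG and 0.37 in non-MG cells), WTAP (0.74 in MG and -0.26 in non-MG cells), KRTAP3-1 (0.68 in MG and 0.13 in non-MG cells), TGM2 (0.66 in MG and 0.56 in non-MG cells), HOXB2 (0.65 in MG and 0.50 in non-MG cells) and MOK (0.59 in MG and 0.28 in non-MG cells). In non-MG cells 7 further members were raised, HOXB8 (0.20 in MG and 1.0 in non-MG cells), ZEB1 (0.41 in MG and 0.67 in non-MG cells), CCNE2 (0.03 in MG and 0.67 in non-MG cells), INF2 (0.31 in MG and 0.64 in non-MG cells), NUP98 (0.50 in MG and 0.63 in non-MG cells), WDR77 (0.47 in MG and 0.63 in non-MG cells) and NDUFAF6 (0.16 in MG and 0.61 in non-MG cells). The difference between the subpopulations was not tested. Of the 23 members raised in at least 1 cell type, 10 had more than 1 measured probe, and KRTAP3-1 was the 1 gene for which every probe was raised in the same cells. The second FAS probe, printed 10 times, gave 0.43 in MG and 0.01 in non-MG cells, under 1.5-fold. For WTAP the brighter probes gave 0.48 in MG and 0.90 in non-MG cells for one, past 1.5-fold in non-MG rather than MG cells, and -0.20 in MG and 0.19 in non-MG cells for the other. One TGM2 probe gave 1.12 in MG and 1.09 in non-MG cells, and the other 0.20 in MG and 0.04 in non-MG cells. The second HOXB2 probe gave -0.40 in MG and 0.09 in non-MG cells, that of MOK 0.26 in MG and 0.24 in non-MG cells and that of CCNE2 -0.06 in MG and -0.32 in non-MG cells. The brighter NUP98 probe gave -0.07 in MG and -0.06 in non-MG cells and the brighter NDUFAF6 probe 0.07 in MG and 0.07 in non-MG cells, while neither of the further INF2 probes passed 1.5-fold. Apart from KRTAP3-1, these responses belong to single measured probes. The 10 genes raised in both subpopulations had no second probe well above background on all arrays. Dim further probes of SUSD2 and STRA6 were well above background on the treated MG array alone, at 21.7 and 16.9. So was a further FAS probe, at 23.2, compared with 9.27 on the untreated MG array. Among the 5 members lowered most were HS3ST1 (-0.31 in MG and -0.59 in non-MG cells), SUMO1P3 (-0.38 in MG and -0.46 in non-MG cells), an unnamed transcript (-0.47 in MG and -0.36 in non-MG cells) and ESS2 (-0.42 in MG and -0.26 in non-MG cells). HS3ST1, HOXB9 (0.06 in MG and -0.62 in non-MG cells) and PIGW (0.32 in MG and -0.70 in non-MG cells) passed 1.5-fold downward in non-MG cells. MIA had 0.47 in MG and 0.47 in non-MG cells, above the upper quartile of the members (0.32 in MG and 0.37 in non-MG cells) and within 1.5-fold. Responses nearer to 0 were those of APOBEC3G (-0.17 in MG and 0.25 in non-MG cells), TM4SF1 (0.10 in MG and 0.33 in non-MG cells), PLK2 (0.05 in MG and 0.05 in non-MG cells) and HOXB6 (0.08 in MG and 0.20 in non-MG cells). DCLK1, with -0.50 in MG and -0.15 in non-MG cells, was lower with the drug in both and within 1.5-fold.

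**Figure D4:**
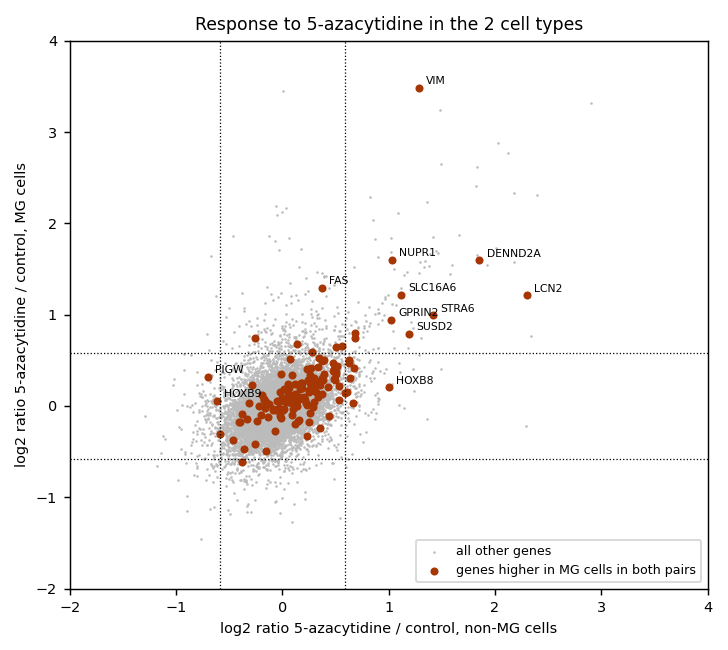
Log2 ratio of 5-azacytidine over control in non-MG cells (horizontal axis) and in MG cells (vertical axis) for the 145 genes (brown) and all other measured genes (grey, clipped at the axes; 1 array per group, no error bars). Dotted lines mark 1.5-fold in each direction. Of the brown points, 10 lie past 1.5-fold in the upper right and 0 in the lower left, with VIM at the top and LCN2 at the far right.

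Further probes of the genes are separate spots of the same RNA. Of the 145 genes, 105 had 1 probe measured well above background throughout, and 40 had more, with 84 probes in all. Of these probes 51 passed the rule and 33 did not. Of the 33, 28 were higher in MG cells in both pairs, 5 were higher in 1 pair alone, and 0 were lower in both. Of all measured genes, 42.8% had ratios above 0 in both pairs. The median log2 ratio of the 33 was 0.50 in both pairs, and 7 were past 0.8 in 1 pair. Over all genes, 2.51% were past 0.8 by any probe in the control pair and 2.74% in the 5-azacytidine pair. For 11 of the 40 genes every probe passed, among them NRIP1, APOBEC3F, TGM2, PSAT1 and KRTAP3-1. KRTAP3-1 had 1.67 and 2.13 for the probe printed 10 times.

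For a few genes the probes disagreed widely, and several of these probes are assigned to different RefSeq transcripts. INF2, a formin that acts on actin, passed by 1 probe at 1.40 and 1.07, while the probes of its other 2 transcripts gave 0.31 and -0.23 and 0.07 and -0.08. TMEM201, a protein of the inner nuclear membrane, passed at 1.19 and 1.31, while the similarly bright probe of another transcript gave 0.04 and -0.08. NUP98, a nucleoporin, had 0.94 and 0.81 for the passing probe and 0.11 and 0.09 for the brighter one. WTAP, a subunit of the RNA methyltransferase complex, passed by a dim probe at 0.98 and 1.99, and its brighter probes gave 1.08 and 0.65 and 0.26 and -0.13. METAP2, a methionine aminopeptidase, and NASP, a histone chaperone, passed by dim probes at 0.94 and 1.08 and 1.12 and 1.42, and their bright probes gave 0.12 and 0.22 for METAP2 and 0.50 and 0.30 for 1 of the 2 of NASP. For these genes the ratio belongs to a probe rather than to all transcripts of the gene. FAS, in contrast, passed at 0.80 and 1.73, and its second probe, printed 10 times, gave 0.74 and 1.16, which put it under the threshold in the control pair by a small amount.

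**Figure D5:**
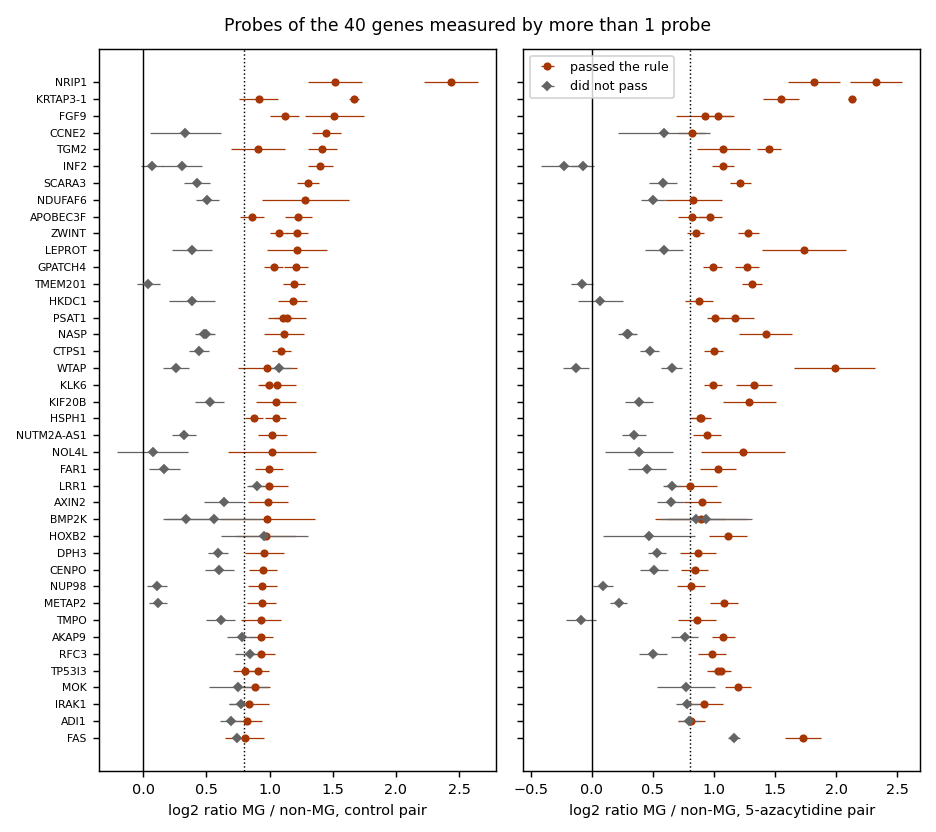
MG over non-MG log2 ratio in the control pair (left) and the 5-azacytidine pair (right) for the 84 probes of the 40 genes with more than 1 measured probe, 1 gene per line (brown circles, probes that passed the rule; grey diamonds, probes that did not; bars, spot error; dotted line, 0.8). Of the 33 grey probes, 28 lie to the right of 0 in both panels, and 42.8% of all measured genes had ratios above 0 in both pairs. The widest separations within a gene include INF2, TMEM201 and WTAP.

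In genome order among the measured genes, some members were next to one another. Of the 145 genes, 140 could be placed by RefSeq among 12680 measured genes, and 16 of them lay next to another member in 7 runs. No matching share over all genes is given, so these counts are a description. The longest run was HOXB5, HOXB6, HOXB8 and HOXB9. HOXB7 of the same cluster was well above background on the control array of the MG cells alone, at 14.8. It was therefore not among the measured genes. The remaining runs were the pairs APOBEC3B with APOBEC3C, APOBEC3F with APOBEC3G, TM4SF18 with TM4SF1, S100A3 with S100A2, ANXA3 with BMP2K, and CCNE2 with NDUFAF6. The first 4 of these pairs join relatives of the same family, while the last 2 join unrelated genes. BMP2K, a kinase, was dim, from 13.7 and 11.7 in non-MG to 30.7 and 27.8 in MG cells, with 0.98 and 0.89 for its passing probe, and its other 2 probes gave 0.56 and 0.93 and 0.34 and 0.85. NDUFAF6, an assembly factor of respiratory complex I, had 1.28 and 0.83 for its dim passing probe and 0.51 and 0.50 for its bright one.

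A related set of genes was kept out by the requirement of signal on all 4 arrays. On both MG arrays 33 genes were well above background and higher by at least 0.8 when the dim non-MG signals were raised to the detection limit, that is, to the lowest signal well above background on that array or to the probe's own signal where that was higher. Their ratios are lower bounds. ZBED2, a transcription factor, was not well above background in non-MG cells and read 95.0 and 99.0 in MG cells, so that it was at least 8.35-fold higher in MG cells in the control pair and at least 7.76-fold in the 5-azacytidine pair. PTN, pleiotrophin, a secreted heparin-binding growth factor, read 83.2 and 79.9 in MG cells and was at least 7.31-fold higher in MG cells in the control pair and at least 6.26-fold in the 5-azacytidine pair. SH3TC2 was at least 3.43-fold higher in MG cells in the control pair and at least 3.13-fold in the 5-azacytidine pair, and KLK5, a kallikrein protease like the member KLK6, was at least 4.29-fold higher in MG cells in the control pair and at least 2.04-fold in the 5-azacytidine pair. GNG11, a G protein gamma subunit, was well above background in non-MG cells with the drug, at 21.3, and not in untreated ones, and it read 50.3 and 148 in MG cells. These 5 genes were named after their values were seen.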

How the data were processed

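RNA of MG and non-MG HCT116 cells, with or without 5-azacytidine, was hybridized to 4 one-colour Agilent SurePrint G3 arrays, 1 per group. Groups were taken from the sample labels. The labels name RNAiso Plus for RNA extraction, while the methods of the study name an RNeasy kit. Per array, the authors deposited Agilent Feature Extraction 11.5.1.1 output, which gives each spot a background-corrected linear intensity without normalization between arrays and marks outliers, saturated spots and spots well above background. A second deposited table holds the authors' log2 values after filters on low signals and flags in GeneSpring, with each probe centred on its median over the arrays, which served as an alternative.

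After removal of control spots and outlier spots, 50594 of 50599 probes were left. The spots of a probe were averaged, and the 75th percentile of each array (75.2 to 98.7 in linear intensity) was subtracted on the log2 scale. A probe was well above background when all its remaining spots were. The lowest intensity well above background was 9.95 to 11.8, and 4 arrays limit the precision of every ratio. Probes were named through RefSeq for GRCh38.p14. Since the arrays were designed on an earlier genome build, gene order and promoter sequences were taken from that table and matched by gene symbol. Of the 145 genes, 5 had no name there. A gene entered by any passing probe and was given the mean of its passing probes. The response to the drug was counted past 1.5-fold. The steps were tested on simulated arrays.

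The members and the gene lists were chosen with earlier results of these data known. The genes named are the 30 with the highest lower ratio, members on a list, the 5 raised and the 5 lowered most by the drug, and the 3 on each side of the threshold. Any others were named after their values were seen. Python 3.11.15 with numpy 2.4.6, pandas 2.3.3 and matplotlib 3.10.9, and R 4.3.3 with limma 3.58.1 for normexp correction and quantile normalization, were used. Some members are not reported here by name.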

Additional observations from a re-analysis of the deposited data

Results flagged for a closer look

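Outside the genes with a RefSeq accession, 19 probes met the same rule and stand for transcripts that were not named here. Their MG over non-MG log2 ratios lay between 0.84 and 1.89 in the control pair and between 0.80 and 2.09 in the 5-azacytidine pair. The probe with the highest lower ratio went from intensities of 19.7 and 18.7 in non-MG cells to 83.1 and 102 in MG cells. One probe was raised past 1.5-fold by 5-azacytidine in both subpopulations, with log2 responses of 1.16 in MG and 1.01 in non-MG cells. These values were not tested, since each group has 1 array.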

How the results depend on the processing

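The number of genes in the module moved with the scaling, the background correction, the threshold and the filter. Centring each array on its median, which shifted the median MG over non-MG ratio of all genes to 0.20 in the control pair and 0.31 in the 5-azacytidine pair, gave 498 genes, and all 145 were among them. Normexp correction with an offset of 50, run on the median spot signal because the files hold no mean, gave 73 genes, of which 58 were shared. A threshold of 1.5-fold gave 475 genes, 2-fold gave 59, and no filter on background gave 367. Under the other alternatives (quantile normalization, the authors' log2 values, detection limits in place of dim signals, bright genes alone, the mean of a gene's probes, every probe passing, no flagged probe) the number lay between 102 and 178.

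The median MG over non-MG log2 ratios of the 145 genes were 1.27 and 1.31 with median centring and 0.73 and 0.77 with normexp. The number raised by the drug was 10 in non-MG cells with median centring, 9 in MG and 6 in non-MG cells with normexp, 8 and 9 with bright genes alone, and 6 and 9 at 2-fold. The number lowered was 1 in non-MG cells with quantile normalization, 0 in MG and 1 in non-MG cells with normexp, and 0 in both at 2-fold. Median centring moves every ratio of a pair of arrays by the same amount, so its shifts follow by construction. The thresholds and the restriction to bright genes count fewer genes by construction. The cause of the other shifts was not tested. Of the members' single ratios past 1.5-fold, 250 moved by more than their spot error with median centring and 77 did not, 285 moved with normexp, 28 with quantile normalization and 0 with the authors' values, and none of these ratios or of the medians changed sign under these 4 alternatives. With all measured probes of a member averaged, chosen after the data were seen, 13 were raised in each cell type.

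A slide block was not fitted, because all arrays share 1 slide, and with 1 array per group no replicate was left out. An additive model of cell type and treatment over the 4 arrays, which would leave 1 residual degree of freedom, was not fitted, since the genes were chosen on the same ratios. Signal over background also limits the module, since 43 of the 145 had a log2 intensity under 5 on at least 1 array.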
